A study of Mus musculus with 15 samples.

Results

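The transcription factors that induce the epithelial-mesenchymal transition (EMT) were followed in every library of a mouse model of metaplastic breast cancer. The 10 genes were chosen by name, with earlier results of these data known, among 51826 genes in the expression tables: Snai1, Snai2, Twist1, Twist2, Zeb1, Zeb2, Prrx1, Foxc2, Foxf2 and Tcf4. In EMT, epithelial cells lose their junctions and polarity and take on a migratory, matrix-producing state. Snail, Twist and Zeb proteins bind E-box elements in DNA and repress genes such as Cdh1, which encodes E-cadherin. In the mammary gland the same factors are also made by normal stromal and basal cells, and metaplastic carcinosarcoma is a tumor in which malignant cells show both carcinoma and sarcoma-like growth.

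The 15 libraries came from 13 mice. Trim24COE mice carry a Trim24 transgene behind a stop cassette that MMTV-Cre removes in mammary epithelium, and their tumors were labelled as metaplastic carcinosarcoma (3 mice: 64, 567 and 897) or carcinoma (3 mice: 89, 273_5 and 3956). The class was not firm for every tumor. Of the pathologists who read the sections, 1 classed tumors 89 and 3956 as carcinosarcoma and tumor 567 as spindle cell carcinoma, and a call from the RNA-seq itself is listed for several tumors, so the labelled classes may not be independent of the values compared. The 4 control glands (133, 392, 417_3 and 517_3) were mammary glands of MMTV-Cre mice on an FVB/129 background, so they carry Cre but no transgene. The 3 non-TRIM24 tumors (219, FVB001 and FVB002) arose spontaneously, by the study's account in FVB or FVB/129 mice without TRIM24 overexpression. Their labels give the genotype as unknown, so whether these mice carried MMTV-Cre is not known. All mice were female and, by the study's account, controls were matched for age, but the labels give no age. The study's supplement lists the ages of the Trim24COE tumor mice, which differed within each class. Age was not part of any comparison here.

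Values were TPM (transcripts scaled for gene length and to a common library total), and how deeply each library was sequenced is unknown. Trim24, the overexpressed gene, stood at 10.6 to 24.08 TPM in the 6 Trim24COE tumors and at 14.54 to 22.41 TPM in the 4 glands. The log2 difference was -0.24 (SE 0.26, limma adjusted p = 0.557), so this gene did not separate the labelled groups in these TPM values. The study itself reported high Trim24 RNA by qRT-PCR in these tumors relative to Cre-only glands. It stated that its RNA-seq had predicted this, which the TPM values above do not show. It also reported overexpressed TRIM24 and FLAG protein in Trim24COE tumors by immunohistochemistry. Control gland 133 and carcinoma 3956 had a repeat library in batch 2, which also held all 3 non-TRIM24 tumors. The repeat was lower than the first library for 10 of 10 factors in gland 133 and 9 of 10 in carcinoma 3956, by up to 1.50 on the log2 scale. The control glands were not alike in composition. The 12 adipocyte markers summed to 34944 and 46668 TPM in glands 133 and 392, and to 2032 and 2193 TPM in glands 417_3 and 517_3, and these pairs are called fat-rich and fat-poor. In these bulk samples, fewer cells of a type and less RNA per cell cannot be told apart.

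**Figure D1:**
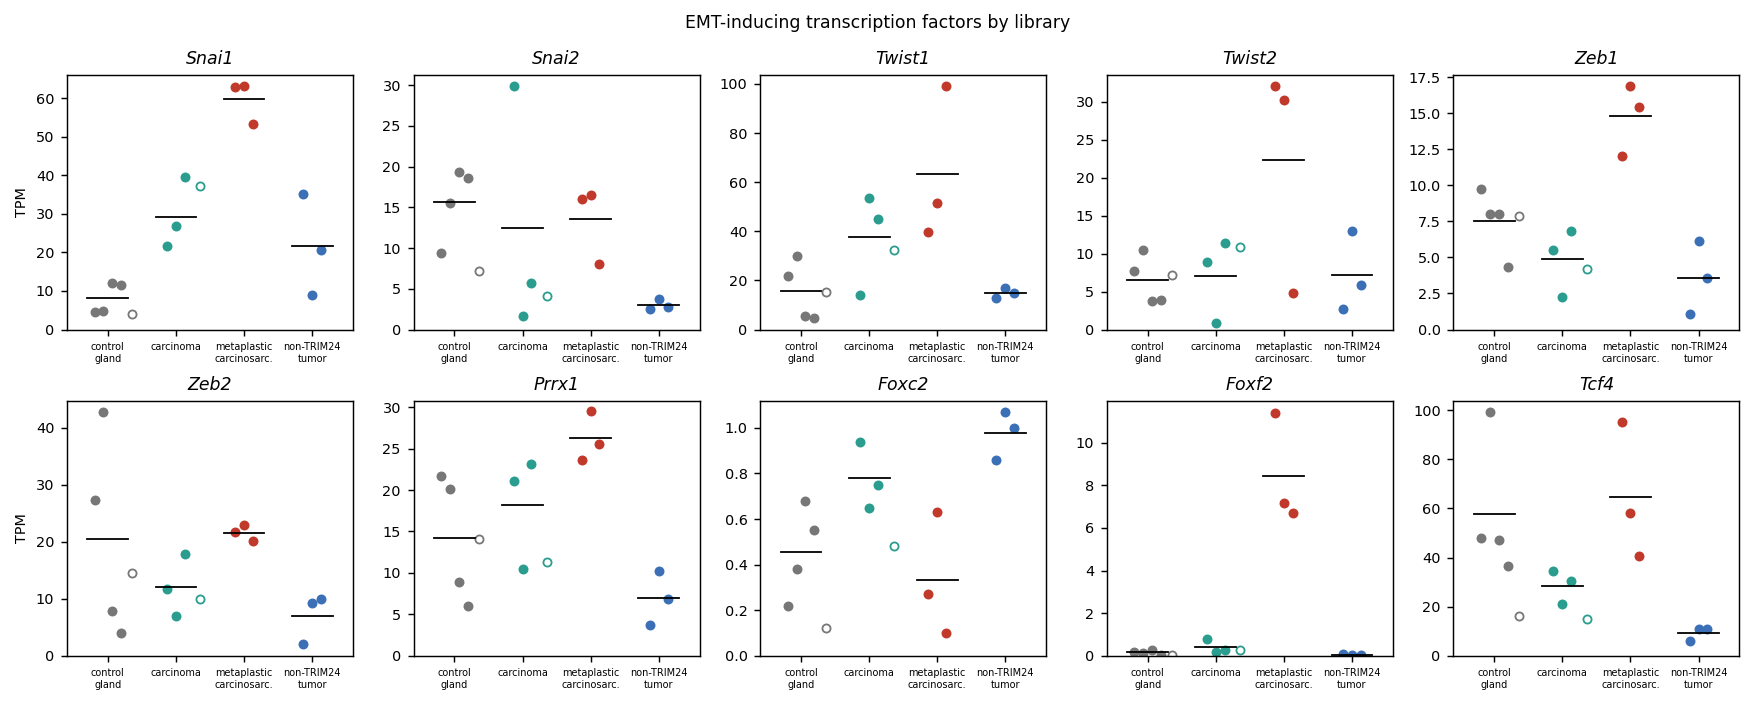
TPM (y axis, linear, from 0) of each factor in every library, by group (x axis). Filled points are first libraries (1 per mouse), open points the repeat libraries of gland 133 and carcinoma 3956, and the bar is the mean of the first libraries. Snai1 and Foxf2 in the metaplastic carcinosarcomas lie above every control gland and carcinoma, whereas Tcf4, Zeb2 and Snai2 overlap with the glands.

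Snai1 rose in the Trim24COE tumors. Snail, its protein, is a zinc-finger repressor of Cdh1 and an early inducer of EMT. The gene (chr2:167538195-167542814, GRCm38) was at 62.82, 63.16 and 53.38 TPM in metaplastic carcinosarcomas 64, 567 and 897. Carcinomas 89, 273_5 and 3956 had 21.54, 26.78 and 39.55 TPM, and the repeat library of 3956 had 37.14 TPM. Control glands 133, 392, 417_3 and 517_3 had 4.53, 4.87, 12.1 and 11.43 TPM (3.98 TPM in the repeat of 133). The 3 groups did not overlap, with the metaplastic carcinosarcomas highest and the glands lowest. Over all 6 Trim24COE tumors against the glands the log2 difference was 2.31 (SE 0.39, limma adjusted p = 0.00333, higher in 6 of 6 tumors), and the exact two-sided permutation p over mice was 0.00476, the smallest that 6 against 4 mice can give. Snai1 was the only factor of 8 tested that passed the limma threshold there, where 17.1% of all genes did. In metaplastic carcinosarcomas the difference from the glands was 2.83 (SE 0.38, limma adjusted p = 0.00261). In carcinomas it was 1.79 (SE 0.43, limma adjusted p = 0.0629), short of the threshold although all 3 were above all 4 glands, and it passed when all batch 1 groups shared 1 fit (limma adjusted p = 0.0216). The difference between the tumor classes, 1.04 (SE 0.28), did not pass (limma adjusted p = 0.197).

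The RefSeq promoter of Snai1 (GRCm38.p6, chr2:167537945-167538244, + strand, from 250 bases before to 50 after the start) is shown because Snail family proteins bind the E-box CAGGTG and this promoter holds 1 copy of it, at position -126 from the start. Capitals mark CAGGTG or its reverse complement CACCTG, sought on both strands.
Snai1: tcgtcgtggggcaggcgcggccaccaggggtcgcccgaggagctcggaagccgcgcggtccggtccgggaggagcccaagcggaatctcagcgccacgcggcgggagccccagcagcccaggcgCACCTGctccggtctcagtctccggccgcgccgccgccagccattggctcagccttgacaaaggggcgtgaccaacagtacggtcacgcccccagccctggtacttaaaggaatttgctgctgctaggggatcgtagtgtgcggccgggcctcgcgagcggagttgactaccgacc
Of the 10 factors, 6 had a promoter in the table used, and Snai1 was the 1 among them with this E-box, which 22.6% of 27025 genes with a promoter of this length hold. A match describes these letters and not binding.

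Snai2 did not follow Snai1. Slug, its protein, is the Snail relative found in normal basal mammary cells. The gene (chr16:14705852-14709385, GRCm38) was at 16.03, 16.49 and 8.03 TPM in metaplastic carcinosarcomas 64, 567 and 897 and at 29.88, 1.67 and 5.67 TPM in carcinomas 89, 273_5 and 3956 (4.07 TPM in the repeat). Glands 133, 392, 417_3 and 517_3 had 9.38, 15.54, 19.36 and 18.55 TPM (7.17 TPM in the repeat). Carcinoma 89 held the highest value of all libraries and carcinoma 273_5 the lowest, so the carcinomas alone spanned the range of every other group. None of the Trim24COE comparisons passed, with a log2 difference of -0.60 (SE 0.59, limma adjusted p = 0.513) over all 6 tumors.

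Twist1 was higher in metaplastic carcinosarcomas than in glands, and it varied widely within glands and carcinomas. Twist proteins are basic helix-loop-helix factors that pair with E proteins and drive EMT in development and metastasis. Twist1 (chr12:33957671-33959829, GRCm38) stood at 39.54, 51.41 and 99.08 TPM in metaplastic carcinosarcomas 64, 567 and 897. Carcinomas 89, 273_5 and 3956 had 13.99, 53.62 and 45.13 TPM (32.19 TPM in the repeat). Glands 133 and 392 had 21.96 and 30.01 TPM (15.47 TPM in the repeat of 133), and glands 417_3 and 517_3 had 5.43 and 4.55 TPM. The fat-rich glands were thus above carcinoma 89, while all metaplastic carcinosarcomas were above all glands. That difference was 2.24 on the log2 scale (SE 0.67, limma adjusted p = 0.045), with an exact two-sided permutation p of 0.0571 over 3 against 4 mice. The call was lost, at limma adjusted p-values from 0.0859 to 0.152, without metaplastic carcinosarcoma 64, 567 or 897 or without gland 417_3 or 517_3, and also under both other scalings, with no filter and without the fat-poor glands, where the difference was 1.16 (limma adjusted p = 0.0820). Over all 6 tumors the difference was 1.83 (SE 0.59, limma adjusted p = 0.0557), and without gland 392 it passed (limma adjusted p = 0.0357), as it did without carcinoma 89 (limma adjusted p = 0.0201).

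Twist2 separated 2 metaplastic carcinosarcomas from the third. Its protein is a close relative of Twist1 with roles in dermis and other mesenchyme. The gene (chr1:91801461-91848028, GRCm38) was at 32.01 and 30.15 TPM in tumors 64 and 567 but at 4.8 TPM in tumor 897, where Twist1 was highest. Carcinomas 89, 273_5 and 3956 had 8.95, 0.87 and 11.35 TPM (10.9 TPM in the repeat), and glands 133, 392, 417_3 and 517_3 had 7.69, 10.52, 3.76 and 3.91 TPM (7.11 TPM in the repeat). Tumor 897 lay within the range of the glands. The difference of metaplastic carcinosarcomas from glands was 1.38 on the log2 scale (SE 0.65, limma adjusted p = 0.163), and without tumor 897 it was 2.20 (limma adjusted p = 0.0263).

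Zeb1 had its 3 highest values in the metaplastic carcinosarcomas. Zeb1 and Zeb2 encode zinc-finger homeodomain repressors that silence epithelial genes and are held down by the miR-200 family in epithelial cells. Zeb1 was at 12.07, 16.91 and 15.44 TPM in metaplastic carcinosarcomas 64, 567 and 897, at 5.54, 2.28 and 6.86 TPM in carcinomas 89, 273_5 and 3956 (4.19 TPM in the repeat) and at 9.73, 8.01, 8.02 and 4.32 TPM in glands 133, 392, 417_3 and 517_3 (7.89 TPM in the repeat). The 3 metaplastic carcinosarcomas were above every other library. The log2 difference was 0.93 from the glands (SE 0.32, limma adjusted p = 0.0699) and 1.50 from the carcinomas (SE 0.39, limma adjusted p = 0.184), neither past the threshold. The difference from the glands passed with quantile normalization (1.13, limma adjusted p = 0.0489) and against the fat-poor glands alone (1.18, limma adjusted p = 0.0362). It also passed with a covariate for the adipocyte markers (1.37, limma adjusted p = 0.0301). The mean log2(TPM + 1) of these markers was 2.24 to 3.67 in the metaplastic carcinosarcomas and 4.54 to 10.28 in the glands. The covariate thus did not overlap between these groups, and its fit reaches below the range of the glands.

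Zeb2 was as high in some glands as in any tumor. The gene (chr2:44983632-45117395, GRCm38) had 21.7, 22.9 and 20.14 TPM in metaplastic carcinosarcomas 64, 567 and 897, a narrow range, and 11.73, 6.93 and 17.83 TPM in carcinomas 89, 273_5 and 3956 (9.95 TPM in the repeat). Fat-rich glands 133 and 392 had 27.43 and 42.73 TPM (14.52 TPM in the repeat of 133), and fat-poor glands 417_3 and 517_3 had 7.95 and 3.97 TPM. The metaplastic carcinosarcomas thus lay between both pairs of glands. Their log2 difference from all glands was 0.56 (SE 0.71, limma adjusted p = 0.605). It was 1.76 against the fat-poor pair alone (limma adjusted p = 0.00839) and -0.64 against the fat-rich pair alone (limma adjusted p = 0.11), so the choice of gland set both the direction and the call. Both settings were chosen after seeing the data. With the adipocyte covariate, which did not overlap between these groups, the difference from all glands was 2.49 (limma adjusted p = 0.00400).

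Prrx1, a homeobox gene of mesenchyme, also depended on the glands for its call, although not for its direction. The gene (chr1:163245119-163313710, GRCm38) was at 23.67, 29.48 and 25.55 TPM in metaplastic carcinosarcomas 64, 567 and 897. Carcinomas 89, 273_5 and 3956 had 21.1, 10.49 and 23.15 TPM (11.33 TPM in the repeat). Glands 133, 392, 417_3 and 517_3 had 21.72, 20.14, 8.88 and 6.06 TPM (14.1 TPM in the repeat). The metaplastic carcinosarcomas were above every gland and every carcinoma, although carcinoma 3956 came within 1 TPM of them. Their difference from the glands was 1.00 (SE 0.44, limma adjusted p = 0.138), which became 1.70 against the fat-poor pair alone (limma adjusted p = 0.00501) and 0.31 against the fat-rich pair alone (limma adjusted p = 0.321). With the adipocyte covariate, which did not overlap between these groups, the difference from all glands was 2.14 (limma adjusted p = 0.00225).

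Tcf4 encodes E2-2, an E protein that pairs with other helix-loop-helix factors and also has roles in neurons, endothelium and plasmacytoid dendritic cells. It was among the most abundant factors, at 95.25, 58.06 and 40.5 TPM in metaplastic carcinosarcomas 64, 567 and 897 and at 34.43, 20.94 and 30.4 TPM in carcinomas 89, 273_5 and 3956. Glands 133, 392, 417_3 and 517_3 had 47.85, 99.12, 47.24 and 36.5 TPM. The carcinomas were below all glands, by a log2 difference of -0.91 (SE 0.38, limma adjusted p = 0.212), and the metaplastic carcinosarcomas overlapped with the glands, at 0.18 (SE 0.41, limma adjusted p = 0.787). The repeat libraries read 16.28 TPM for gland 133 and 14.97 TPM for carcinoma 3956, so 2 libraries of 1 mouse differed by more than these groups did.

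Foxf2 was close to 0 everywhere except in the metaplastic carcinosarcomas. Its protein is a forkhead factor of mesenchyme in gut and other organs. The gene (chr13:31625816-31631403, GRCm38) stood at 11.39, 7.16 and 6.72 TPM in metaplastic carcinosarcomas 64, 567 and 897. Carcinomas 89, 273_5 and 3956 had 0.79, 0.19 and 0.26 TPM (0.26 TPM in the repeat), and glands 133, 392, 417_3 and 517_3 had 0.18, 0.15, 0.28 and 0.05 TPM (0.04 TPM in the repeat). Non-TRIM24 tumors 219, FVB001 and FVB002 had 0.09, 0.02 and 0.06 TPM. The lowest metaplastic carcinosarcoma was therefore more than 5 TPM above the highest library of any other group. The log2 difference was 2.99 from the glands (SE 0.27, limma adjusted p = 0.000828) and 2.73 from the carcinomas (SE 0.33, limma adjusted p = 0.0201), on the log2(TPM + 1) scale, which understates the change of a gene this low. The gene passed the filter on low values only through the metaplastic carcinosarcomas, so a difference was built into the choice, and it was not tested between all 6 tumors or the carcinomas and the glands. The exact two-sided permutation p was 0.0286 against the glands and 0.1 against the carcinomas, in each case the smallest the design allows. Against the carcinomas the call did not survive the loss of a tumor in 5 of 6 fits (without 64, 567, 897, 89 or 273_5), at differences of 2.51 to 2.91, nor the removal of the filter (limma adjusted p = 0.185).

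The coding genes beside Foxf2 that were above 0 in any library showed no such step. Foxq1, another forkhead gene, lies 64840 bp away and was at 0.94 to 4.64 TPM in the metaplastic carcinosarcomas and 1.27 to 20.37 TPM in the glands. Foxc1, also a forkhead gene, lies 175230 bp away and had 2.72 to 4.87 TPM against 4.52 to 26.58 TPM in the glands. Gmds, an enzyme of GDP-fucose synthesis, lies 188176 bp away and had 18.27 to 31.57 TPM against 14.09 to 31.48 TPM. The metaplastic carcinosarcomas overlapped with the glands for all 3 neighbors. The other coding gene within 300 kb, A530084C06Rik, was listed at 0 in all 15 libraries. Neither Foxq1 (log2 difference -1.16, SE 0.89, limma adjusted p = 0.379) nor Foxc1 (-1.41, SE 0.64, limma adjusted p = 0.147) passed against the glands.

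**Figure D2:**
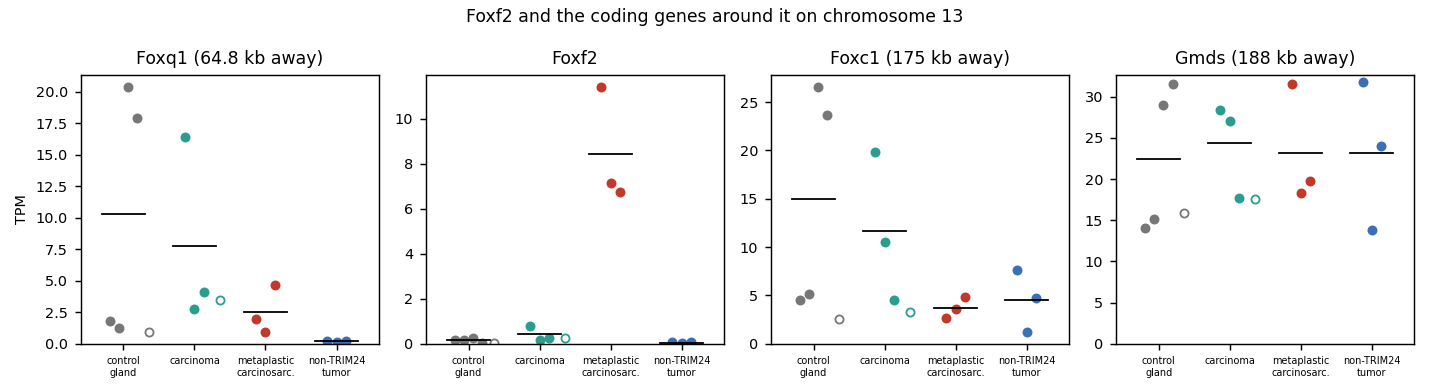
TPM (y axis, linear, from 0) of Foxf2 and of the 3 coding genes within 300 kb of it that were above 0 in any library, by group (x axis), with the distance in each title. Points and bars are as in the plot of all factors. Foxf2 is at 6.72 TPM or more in the 3 metaplastic carcinosarcomas and below 1 TPM elsewhere, and the neighbors drawn show no such step.

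Foxc2, a forkhead gene of lymphatic vessels and other mesoderm (chr8:121116171-121118895, GRCm38), was at 1.07 TPM or less in all 15 libraries and was too low to be tested. It was at 0.27, 0.63 and 0.1 TPM in metaplastic carcinosarcomas 64, 567 and 897. Carcinomas 89, 273_5 and 3956 had 0.94, 0.65 and 0.75 TPM (0.48 TPM in the repeat), and glands 133, 392, 417_3 and 517_3 had 0.22, 0.38, 0.68 and 0.55 TPM (0.12 TPM in the repeat). The non-TRIM24 tumors 219, FVB001 and FVB002 had 0.86, 1.07 and 1 TPM, and those of FVB001 and FVB002 were above every other library. At these levels the metaplastic carcinosarcomas overlapped with the glands and lay below the carcinomas.

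The factors were then counted side by side. Against the glands, 3 of 9 factors tested were higher in metaplastic carcinosarcomas (Snai1, Twist1 and Foxf2) and none was lower, where 23% of all genes passed in either direction and 9.83% passed as higher. Foxf2 entered this test only through the metaplastic carcinosarcomas, and without it 2 of 8 were higher. The median difference was 1.00 (0.96 without Foxf2), beside -0.12 over all genes tested. In 5 factors (4 without Foxf2) the metaplastic carcinosarcomas lay above every gland, as they did for 15.4% of all genes. In carcinomas, 0 of 8 factors passed with limma, where 3.5% of all genes did. An unadjusted p under 0.05 was reached by 2 of them (Snai1 and Tcf4) and by 21.5% of all genes. Their median difference was -0.25, beside 0.02 over all genes. These comparisons share the 4 glands.

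Between the tumor classes the point estimates of all 9 factors tested were higher in metaplastic carcinosarcomas, with a median of 1.04 (0.95 without Foxf2) beside -0.10 over all genes. In 6 of them (Snai1, Zeb1, Zeb2, Prrx1, Foxf2 and Tcf4) the 3 metaplastic carcinosarcomas lay above the 3 carcinomas, which held for 7.33% of all genes. The limma threshold was passed by Foxf2 alone, where 0.698% of all genes passed. Its test was open only through the class in which it is high, and of the other 8 factors 0 passed with limma. An unadjusted p under 0.05 was reached by 4 of these 8, and by 2124 of 14193 genes in the fit with no variance trend. With no filter neither Foxf2 nor any other gene passed with limma (2871 at an unadjusted p under 0.05), and 0 genes did without metaplastic carcinosarcoma 64 (1143 at an unadjusted p under 0.05) or without carcinoma 89 (1495). With 3 against 3 mice an exact permutation p cannot go below 0.1. Carcinoma 273_5 was the lowest of the 6 Trim24COE tumors for 7 of the 10 factors, yet its Twist1 was the second highest. The summed level of the 10 factors was 273.7 to 314.8 TPM in metaplastic carcinosarcomas, 124.4 to 181 TPM in carcinomas and 89.89 to 231.5 TPM in glands.

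**Figure D3:**
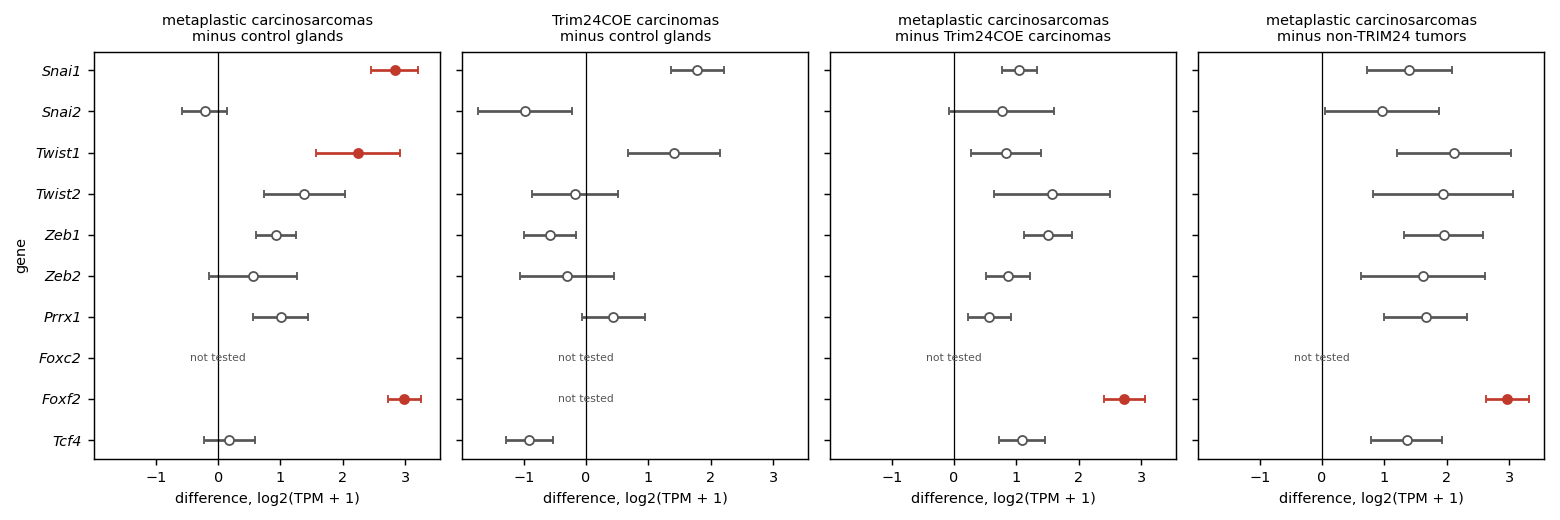
Difference in log2(TPM + 1) (x axis) with its standard error (bars) for each factor (y axis) in 4 comparisons from the limma fits. In the comparison with non-TRIM24 tumors the difference is adjusted for batch by the batch term of the fit, and elsewhere it is a difference of means. Filled red points passed an adjusted p of 0.05 and open points did not. Foxf2 is filled in all 3 comparisons of metaplastic carcinosarcomas, at 2.73 to 2.99, and Snai1 and Twist1 only in that with the glands.

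The non-TRIM24 tumors tended to low values for several factors, although not for Snai1, and they were sequenced with batch 2 only. Their Tcf4 was at 6.13, 10.74 and 10.93 TPM in tumors 219, FVB001 and FVB002, below both repeat libraries of that batch (16.28 and 14.97 TPM). Snai2 was at 2.56, 3.78 and 2.71 TPM and Zeb1 at 1.09, 6.11 and 3.58 TPM. Snai1 ranged more widely, with 35.1, 8.92 and 20.58 TPM. For Twist1 they had 12.91, 16.82 and 14.68 TPM, for Twist2 2.66, 12.98 and 5.85 TPM, for Zeb2 2.05, 9.2 and 9.91 TPM, and for Prrx1 3.76, 10.22 and 6.88 TPM. Tumor 219 was the lowest of the 3 for Twist1, Twist2, Zeb1, Zeb2, Prrx1, Snai2 and Tcf4 and the highest for Snai1. The fits carried a batch term, for which the only link was the pair of mice with a library in each batch. Against the glands, 0 of 9 factors passed with limma, where 0.107% of all genes did. An unadjusted p under 0.05 was reached by 2 factors and by 10.7% of all genes. The point estimate was above 0 for Snai1 (1.54, limma adjusted p = 0.393) and below 0 for Tcf4 (-1.10, limma adjusted p = 0.45). Between carcinomas and non-TRIM24 tumors, 0 of 9 factors passed with limma, where 0.0179% of all genes did, and 0 had an unadjusted p under 0.05, as 17.7% of all genes had. Between metaplastic carcinosarcomas and non-TRIM24 tumors Foxf2 passed (log2 difference 2.97, SE 0.34, limma adjusted p = 0.00345), where 0.0775% of all genes did. That call was lost without gland 133 (limma adjusted p = 0.106), without carcinoma 3956 (limma adjusted p = 0.0823) and with a minimum of 5 TPM (limma adjusted p = 0.062). In these fits 1 of 16344, 0 of 16531 and 1 of 12576 genes passed, in that order. Foxf2 fell below the filter without tumor 64, 567 or 897. With no batch term, 5 factors passed there, as did 2425 of 16544 genes.

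Other genes tied to EMT factors were taken from lists. Of 13 further EMT-linked transcription factors, 10 were tested between metaplastic carcinosarcomas and glands and 2 passed, a share no larger than the 23% of all genes. Prrx2, the paralog of Prrx1, was higher in metaplastic carcinosarcomas than in glands (log2 difference 2.90, SE 0.33, limma adjusted p = 0.00171; 25.65, 27.06 and 36.35 TPM against 2.46 to 4.94 TPM), and Sox10, a neural crest factor also found in basal and progenitor-like mammary cells, was lower (-4.99, SE 0.61, limma adjusted p = 0.00206), while the other 8 tested did not pass. Prrx2 was also higher over all 6 tumors (2.56, SE 0.39, limma adjusted p = 0.00204). Among the Id genes, whose proteins block helix-loop-helix factors such as Twist1 and Tcf4, Id4 was the 1 of 4 tested that fell over all 6 tumors, where 17.1% of all genes passed. It was at 0.16 to 1.61 TPM in the 6 tumors and 7.76 to 42.49 TPM in the glands, a log2 difference of -3.54 (SE 0.52, limma adjusted p = 0.00162), and it passed as well in metaplastic carcinosarcomas and in carcinomas taken alone. Of 13 corepressor subunits through which Snail and Zeb act, 2 passed over all 6 tumors, about the share of all genes (17.1%). They were Hdac2, a histone deacetylase (0.74, SE 0.17, limma adjusted p = 0.0131), and Suv39h1, a histone methyltransferase (1.19, SE 0.30, limma adjusted p = 0.0206), both higher. Of 10 genes that control Snail and Twist protein turnover, 0 passed with limma in that comparison and 0 had an unadjusted p under 0.05. Of 9 TGF-beta inputs, Tgfb3 was lower in metaplastic carcinosarcomas than in glands (-1.38, SE 0.38, limma adjusted p = 0.0361) and the other 8 did not pass, where 23% of all genes did.

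Epithelial genes fell in metaplastic carcinosarcomas. Of 8 gatekeepers, factors that hold the epithelial state and oppose EMT, 6 passed the filter against the glands and all 6 fell (median -3.66, beside -0.12 over all genes), where 13.1% of all genes passed as lower. Against the carcinomas 4 of 6 were lower, where 0.585% of all genes were. All 8 gatekeepers together summed to only 3.25 to 7.84 TPM in metaplastic carcinosarcomas. They could thus pass the filter on low values mainly through the glands or carcinomas, so a difference was largely built into both counts. Between carcinomas and glands 0 of 8 passed with limma, where 3.5% of all genes did. An unadjusted p under 0.05 was reached by 1 of the 8 and by 21.5% of all genes. Against the glands Grhl2, a grainyhead-like activator of Cdh1, fell by 3.15 on the log2 scale (SE 0.60, limma adjusted p = 0.00987). It was at 0.87, 0.85 and 1.34 TPM in metaplastic carcinosarcomas 64, 567 and 897, against 14.55 to 21.7 TPM in carcinomas and 7.42 to 40.76 TPM in glands. Esrp1, an epithelial splicing regulator, was at 0.43, 1.55 and 0.19 TPM against 21.54 to 49.87 TPM in carcinomas (log2 difference -4.50, SE 0.44, limma adjusted p = 0.013). Ovol2, a repressor of Zeb1, was at 0.08, 0.15 and 0.11 TPM against 2.85 to 4.36 TPM in carcinomas (-1.99, SE 0.27, limma adjusted p = 0.0343), and its relative Ovol1, at 0.06 to 0.13 TPM in metaplastic carcinosarcomas and 0.52 to 3.36 TPM in glands, was too low to be tested.

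Of 26 epithelial genes that EMT factors repress, 22 fell in metaplastic carcinosarcomas against the glands (median -3.52), where 13.1% of all genes did. Against the carcinomas 10 of 25 fell, where 0.585% of all genes did. Between carcinomas and glands 0 of 26 passed with limma (median 0.29), and 2 had an unadjusted p under 0.05, as 21.5% of all genes had. Cdh1, which encodes E-cadherin, was at 3.19, 18.87 and 1.29 TPM in metaplastic carcinosarcomas 64, 567 and 897, at 123.8, 84.83 and 102.6 TPM in carcinomas 89, 273_5 and 3956 and at 36.88 to 196.1 TPM in the glands. It fell by 3.84 against the glands (SE 0.87, limma adjusted p = 0.0177), and the difference of -4.17 from carcinomas (SE 0.74) did not pass (limma adjusted p = 0.0744). Prss8, a membrane serine protease, and Tjp3, a tight junction scaffold, had the smallest p among those that fell against the glands (-4.05 and -4.57). Tumor 567 was the highest of the 3 for Cdh1 and Epcam, and the 3 tumors were below every gland and carcinoma for both genes. In non-TRIM24 tumor FVB001 the 26 epithelial genes summed to 756.9 TPM, within the 364.3 to 1476 TPM of the metaplastic carcinosarcomas. Tumors 219 and FVB002 had 6154 and 3566 TPM. The non-TRIM24 tumors were not alike in composition. Their 12 adipocyte markers summed to 67344.5 TPM in FVB001, 33286 TPM in FVB002 and 237.2 TPM in 219. The metaplastic carcinosarcomas had 205.1 to 338.8 TPM of these markers. The part of fat in the epithelial sums was not tested. Between metaplastic carcinosarcomas and non-TRIM24 tumors 0 of 26 epithelial genes and 0 of 8 gatekeepers passed with limma, where 0.0775% of all genes did. The median differences were -3.07 and -2.51. On the mesenchymal side, 17 of 26 genes rose in metaplastic carcinosarcomas against the glands, where 9.83% of all genes did. Between carcinomas and glands 2 of 26 rose (median 1.31, beside 0.02 over all genes), where 3.5% of all genes passed in either direction. An unadjusted p under 0.05 was reached by 11 of the 26 and by 21.5% of all genes. Against the carcinomas 0 of 26 passed with limma. An unadjusted p under 0.05 was reached there by 6 of them, and by 2124 of 14193 genes in the fit with no variance trend. Vim, the intermediate filament vimentin, was at 1583, 2136 and 2722 TPM in metaplastic carcinosarcomas 64, 567 and 897 against 412.5 to 765.1 TPM in glands (log2 difference 2.01, SE 0.32, limma adjusted p = 0.00521). Fn1, fibronectin, rose by 5.63 (SE 0.25, limma adjusted p = 0.000163) and in carcinomas by 4.26 (SE 0.70, limma adjusted p = 0.0239).

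Promoters of Epcam and Crb3 are shown because these epithelial genes fell in metaplastic carcinosarcomas and hold several copies of the E-box bound by Snail, Slug and Zeb proteins. Epcam encodes an epithelial adhesion molecule and was at 10.28, 36.44 and 2.73 TPM in metaplastic carcinosarcomas 64, 567 and 897 against 153.4 to 660.9 TPM in the glands. Crb3 encodes an apical polarity protein and was at 0.41, 1.89 and 0.14 TPM against 15.11 to 30.63 TPM. The sequences are RefSeq promoters of GRCm38.p6 on the + strand, chr17:87635729-87636028 and chr17:57061951-57062250, with CAGGTG and CACCTG in capitals.
Epcam: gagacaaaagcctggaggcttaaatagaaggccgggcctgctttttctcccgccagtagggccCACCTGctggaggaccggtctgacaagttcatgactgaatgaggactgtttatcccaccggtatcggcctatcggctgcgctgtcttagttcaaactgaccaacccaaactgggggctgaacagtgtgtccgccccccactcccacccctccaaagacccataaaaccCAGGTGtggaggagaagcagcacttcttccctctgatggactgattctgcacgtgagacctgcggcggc
Crb3: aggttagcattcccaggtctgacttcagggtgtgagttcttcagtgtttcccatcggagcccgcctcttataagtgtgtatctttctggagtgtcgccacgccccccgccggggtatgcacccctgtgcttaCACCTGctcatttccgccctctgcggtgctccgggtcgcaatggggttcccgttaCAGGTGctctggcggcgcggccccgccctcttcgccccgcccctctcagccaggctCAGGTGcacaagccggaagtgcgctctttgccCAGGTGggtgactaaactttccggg
The Epcam promoter holds 2 copies and the Crb3 promoter 4. Of the 26 epithelial genes, 14 had a promoter in the table and 12 of these (85.7%) hold CAGGTG on either strand, beside 22.6% of all promoters. Of the mesenchymal genes 1 of 12 does (8.33%), and of the gatekeepers 2 of 4. The looser E-box CANNTG, which contains CAGGTG, is in 85.7% of the epithelial and 75% of all promoters. The epithelial list was written with known E-box repression in mind, so these shares describe the list.

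**Figure D4:**
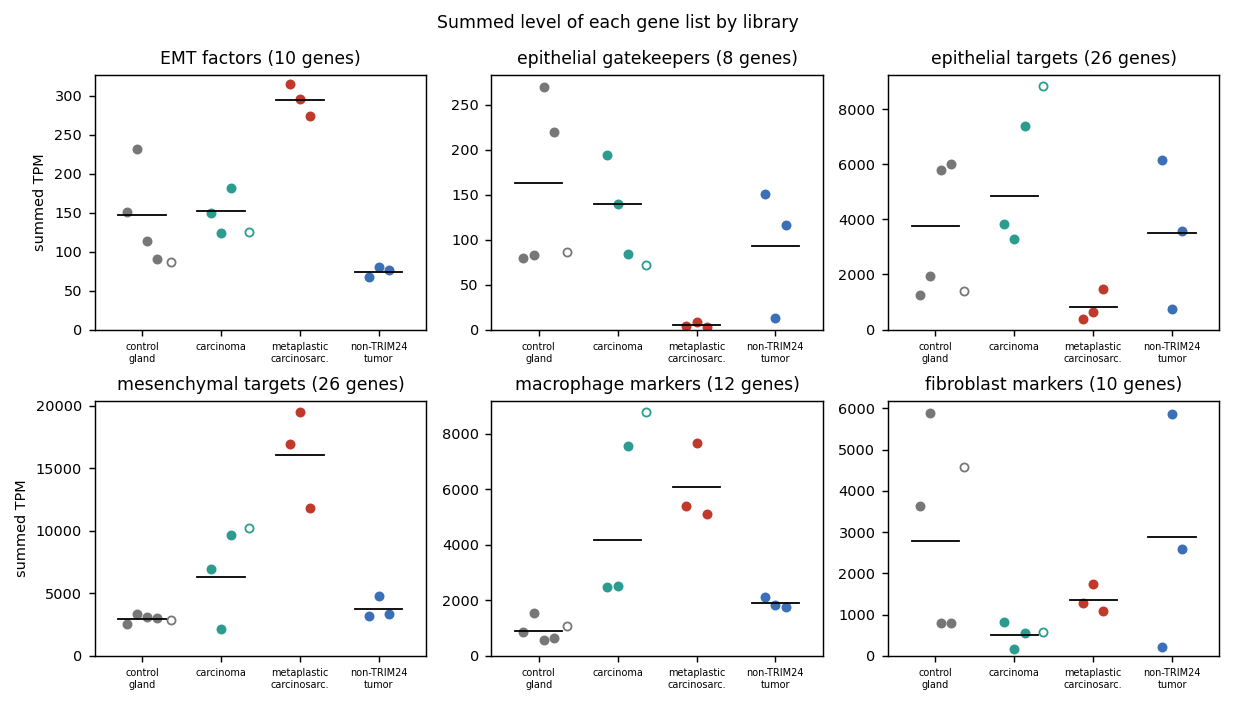
Summed TPM (y axis, linear, from 0) of 6 gene lists in each library, by group (x axis). Points and bars are as in the plot of all factors. In the metaplastic carcinosarcomas the gatekeepers sum to 3.25 to 7.84 TPM, below every other library, and the mesenchymal genes to 11794 TPM or more.

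Markers of other cell types moved with several of these results. The 12 macrophage markers summed to 5126 to 7673 TPM in metaplastic carcinosarcomas, 2461 to 7543 TPM in carcinomas and 586.6 to 1532 TPM in glands, and 9 of 12 rose in metaplastic carcinosarcomas against glands, where 9.83% of all genes did. The 10 fibroblast markers summed to 1087 to 1730 TPM in metaplastic carcinosarcomas, 163.1 to 824.8 TPM in carcinomas and 793.5 to 5896 TPM in glands, so their sum too was higher in every metaplastic carcinosarcoma than in every carcinoma, with carcinoma 273_5 again lowest. Of the single fibroblast markers, 2 of 10 were higher in all 3 metaplastic carcinosarcomas than in all 3 carcinomas, as were 7.33% of all genes. Of the 10 markers, 0 passed with limma between these classes (1 at an unadjusted p under 0.05). The 12 endothelial markers summed to 281.3 to 601.6 TPM in metaplastic carcinosarcomas and 113.1 to 324.2 TPM in carcinomas. No fibroblast, macrophage or endothelial marker was at 0 in any library. The part of these cells in the levels of the factors was not tested.

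The genes most like each factor were found by Pearson's r of log2(TPM + 1) over the 10 mice of batch 1 among 13929 genes. These mice fall into 3 groups and share 1 batch, so the values describe the ranking and carry no test. Nearest to Snai1 were Tpm4, a tropomyosin (r = 0.984), Mthfd1l (r = 0.979) and Prdx1 (r = 0.978). For Foxf2 they were Rhd (r = 0.974), Ccdc102a (r = 0.967) and Kcnd1 (r = 0.962). Prrx1 was nearest to Ttyh2 (r = 0.957), and to Pf4 (r = 0.952) and F13a1 (r = 0.952), which are known from platelets and macrophages. Twist1 was nearest to Ctsb, a lysosomal protease (r = 0.963), Zeb1 to Mpv17l (r = 0.918), Zeb2 to Iqcc (r = 0.945), Twist2 to Rem1 (r = 0.953), Snai2 to Cst7 (r = 0.928) and Tcf4 to Rcan2 (r = 0.963).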

How the data were processed

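RNA-seq was analyzed in 15 libraries of 13 mice, grouped by the sample labels. The deposited values are TPM, which the authors estimated with RSEM after alignment by STAR (GRCm38). The submitters' processing notes also name TopHat and Cufflinks, so the exact path is uncertain. TPM carry no read depth. The error given is the standard error of the limma difference, with variances moderated across genes. It rests on the spread between mice, or between libraries where both libraries of a mouse entered a fit.

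Values were compared as log2(TPM + 1) with limma 3.58.1 in R 4.3.3 (variance trend, Benjamini-Hochberg adjustment over all genes tested, threshold 0.05). Genes needed 1 TPM or more in at least 3 libraries of the fit, or 4 for all 6 tumors against glands. Within batch 1, a fit held the first libraries of the groups compared. Fits for non-TRIM24 tumors held every library and a batch term, and counted both libraries of a mouse separately. Two-sided exact permutation tests over mice compared mean log2(TPM + 1). The code was tested on simulated data. Rose, fell, higher and lower, said of a test, mean an adjusted p under 0.05.

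The factors and the 19 gene lists were chosen with earlier results of these data known. All 10 factors were named, and of each other list up to 2 genes per direction with the smallest p among those called, with Cdh1, Vim, Grhl2, Ovol1, Ovol2, Esrp1 and Trim24. Foxq1, Foxc1, Gmds, Epcam, Crb3, Foxl1, Foxf1, Cdh2 and the carcinoma values of Sox10 were added after their values were seen. Locations are from GENCODE M21 (GRCm38) and promoters from RefSeq (GRCm38.p6). Figures were drawn with matplotlib 3.10.9. Alternatives covered the pseudocount, filters, scaling, variance trend, shared fits, averaged repeats, an adipocyte covariate, the batch term and each mouse left out. Leaving out the fat-rich or the fat-poor glands was chosen after seeing the data.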

Additional observations from a re-analysis of the deposited data

Results flagged for a closer look

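Foxf2 differed between tumor classes in the limma fits, but it passed the filter on low values only through the metaplastic carcinosarcomas, so a difference was built into its choice. Metaplastic carcinosarcomas exceeded Trim24COE carcinomas by 2.73 on the log2(TPM + 1) scale (SE 0.33, limma adjusted p = 0.0201), higher in 3 of 3 tumors. That call was kept in 8 of 9 fits with another setting and in 1 of 6 fits with a tumor left out, and it was lost with no filter (limma adjusted p = 0.185). They exceeded non-TRIM24 tumors by 2.97 (SE 0.34, limma adjusted p = 0.00345), also higher in 3 of 3 tumors. That call was kept in 8 of 13 fits with a mouse left out. It was lost without gland 133 or carcinoma 3956 and at a minimum of 5 TPM, where at most 1 gene passed in each fit. It could not be tested without tumor 64, 567 or 897. No factor had a mouse that stood apart by Dixon's criterion among the 4 control glands or the 6 Trim24COE tumors.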

How the results depend on the processing

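Snai1 over all 6 Trim24COE tumors kept its call in 12 of 12 other settings (log2 difference 1.36 to 2.89) and without any 1 mouse, and Snai1 and Foxf2 in metaplastic carcinosarcomas against glands did likewise. The number of factors called over all 6 tumors was 1, and 3 without the fat-rich glands, where 2653 of 16351 genes passed (1 to 2 factors with 1 mouse left out). In metaplastic carcinosarcomas against glands it was 3, 6 with the adipocyte covariate or without the fat-rich glands, and 2 with no filter, with median-of-ratios scaling or without the fat-poor glands (2 to 3 with 1 mouse left out). Calls over all genes rose too, from 3511 of 15287 to 4789 of 15287 with the covariate and 5837 of 15538 without the fat-rich glands. The covariate did not overlap between metaplastic carcinosarcomas and glands, so its counts rest on a fit beyond the range of the glands. In carcinomas the number of factors was 0, and 1 with median-of-ratios scaling, quantile normalization, all batch 1 groups in 1 fit or without the fat-poor glands, in each case Snai1. Between the tumor classes it was 1, and 0 with no filter (0 to 1 with 1 mouse left out). For non-TRIM24 tumors against glands and for carcinomas against non-TRIM24 tumors it was 0, and 1 (Tcf4) with no batch term. For metaplastic carcinosarcomas against non-TRIM24 tumors it was 1, 0 at a minimum of 5 TPM and 5 with no batch term, where 2425 of 16544 genes passed (0 to 1 factors with 1 mouse left out).

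Directions turned, with no call, as follows. Without the fat-poor glands, Zeb1 (-0.080) and Zeb2 (-1.08) turned over all 6 tumors, Snai2 (0.086), Zeb2 (-0.64) and Tcf4 (-0.18) in metaplastic carcinosarcomas, and Prrx1 (-0.26) in carcinomas. In carcinomas against glands, Twist2 and Zeb2 turned with the adipocyte covariate (0.29 and 0.76) and without the fat-rich glands (0.34 and 0.89). For non-TRIM24 tumors against glands, Foxf2 turned with 0.1 TPM added (-0.062), and Twist2 and Foxf2 with no batch term (0.020 and -0.14) and with the mouse as a random effect (0.069 and -0.033). For carcinomas against non-TRIM24 tumors, Snai2 turned with median-of-ratios scaling (-0.018), Twist2 with no batch term (-0.20) and, with the mouse as a random effect, Twist2 (-0.24) and Zeb1 (-0.0043). With 1 mouse left out, the ranges that crossed 0 were -0.038 to 0.47 for Zeb1 and -0.42 to 0.63 for Zeb2 over all 6 tumors, -0.43 to 0.094 for Snai2 and -0.14 to 0.47 for Tcf4 in metaplastic carcinosarcomas against glands, -0.69 to 0.67 for Twist2 and -0.85 to 0.20 for Zeb2 in carcinomas against glands, and -0.045 to 1.72 for Snai2 between the tumor classes. They were -0.067 to 0.62 for Twist1 and -0.051 to 0.056 for Foxf2 in non-TRIM24 tumors against glands, and -0.44 to 0.95 for Snai1, -0.11 to 0.54 for Snai2, -0.49 to 0.96 for Twist2, -0.060 to 0.82 for Zeb1 and -0.18 to 0.68 for Tcf4 in carcinomas against non-TRIM24 tumors. The causes were not tested.

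Over all genes, 2597 passed for all 6 tumors and 1052 with the adipocyte covariate (1779 to 2911 with 1 mouse left out). For metaplastic carcinosarcomas against glands 3511 passed, 1623 with no filter and 5837 without the fat-rich glands (1345 to 3093 with 1 mouse left out, lowest without 64). For carcinomas 542 passed, 46 with no filter, 1170 in 1 shared fit, 1224 without the fat-rich and 1255 without the fat-poor glands (72 to 526 with 1 mouse left out, lowest without gland 517_3). Between the tumor classes 99 passed, and 0 with no filter (2871 at an unadjusted p under 0.05), 0 without tumor 64 or 89, 14 without 897, 49 without 567 and 293 without 3956. For non-TRIM24 tumors against glands 18 passed, 5 with 0.1 TPM added, 1 at a minimum of 5 TPM, 33 with median-of-ratios scaling, 119 with the mouse as a random effect and 2330 with no batch term. For carcinomas against non-TRIM24 tumors 3 passed, and 1 to 8 in the other settings but 1500 with no batch term. For metaplastic carcinosarcomas against non-TRIM24 tumors 13 passed, 1 at a minimum of 5 TPM, 95 and 92 with median-of-ratios and quantile scaling, 799 with the mouse as a random effect and 2425 with no batch term. Quantile normalization raised the share of higher calls from 42.8% to 56.7% in metaplastic carcinosarcomas against glands and moved the median of all genes there from -0.12 to 0.04, and median-of-ratios scaling lowered that share from 61.5% to 41.1% against non-TRIM24 tumors. No paired analysis was possible because the labels give mouse numbers that no groups share. Factors below the filter gave no value in a setting. TPM carry no depth, so what depth limits could not be judged.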

Other observations

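Foxl1, a forkhead gene 9045 bp from Foxc2, was at 40.08 TPM in carcinoma 3956 and at 37.4 TPM in its repeat library, whereas the other 13 libraries had 2.09 TPM or less. Foxf1, on the other side of Foxc2, was at 7.21 and 4.28 TPM in metaplastic carcinosarcomas 64 and 897 and at 0.65 TPM in tumor 567, against 0.39 to 2.45 TPM in the glands. Both genes were chosen after their values were seen, as neighbors of a factor. Foxl1 was not tested, and Foxf1 did not pass between metaplastic carcinosarcomas and glands (log2 difference 0.87, SE 0.57, limma adjusted p = 0.301).

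Cdh2, which encodes N-cadherin, the cadherin usually gained in EMT, did not follow Snai1. It was at 1.31, 14.89 and 0.57 TPM in metaplastic carcinosarcomas 64, 567 and 897 and at 2.93, 1.25 and 20.75 TPM in carcinomas 89, 273_5 and 3956, against 1.74 to 2.35 TPM in the glands. The log2 difference of metaplastic carcinosarcomas from glands was 0.34 (SE 0.72, limma adjusted p = 0.766). Sox10 also split the carcinomas, with 53.33 and 115.6 TPM in 89 and 273_5 and 0.64 TPM in 3956 (1.14 TPM in the repeat).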
